A study of Mus musculus with 12 samples.

Results

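The Shank, Homer and Dlgap families were examined in the forebrain of Shank3 mutant mice. The 10 genes were taken by name from the 19268 genes of the expression table: Shank1 to Shank3, Homer1 to Homer3 and Dlgap1 to Dlgap4. RNA from 12 male C57BL/6J mice was sequenced, from juveniles at postnatal day 25 (P25) and adults at postnatal day 60 (P60). Mice were wild-type (WT) or knock-out (KO), which here means homozygous for a deletion of exons 14 to 16 of Shank3. Each of the groups P25-WT, P25-KO, P60-WT and P60-KO had 3 libraries, 1 from each mouse. The tissue was forebrain from which the olfactory bulb had been removed, so each value is a sum over many cell types, in which fewer cells of a type and less RNA per cell cannot be told apart. Values are normalized counts, that is, estimated read counts that the authors had divided by factors for library size and transcript length.

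These 3 families build the deep layers of the postsynaptic density, the protein-rich disc under the membrane of excitatory synapses. Dlgap proteins (also called SAPAP or GKAP) bind PSD-95, which holds glutamate receptors, and their C-terminal ends bind the PDZ domain of Shank proteins. Homer proteins bind a proline-rich stretch of Shank and connect it with group I metabotropic glutamate receptors and with calcium channels of the endoplasmic reticulum. A Shank protein therefore sits between the receptor complexes and the actin cytoskeleton, and a second Shank paralog could in principle take its place.

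The deleted part of Shank3 is shown first, because it defines the KO. Shank3 (ENSMUSG00000022623) lies on chromosome 15, 89499623 to 89560261, on the plus strand of the mouse assembly GRCm38. The annotated coding transcript used here has 22 exons and 7365 bases, of which 5415 are coding. Exon numbers are those of this transcript and were taken to be the ones of the study. All 3 exons are coding and encode part of the PDZ domain that binds Dlgap. Their sequences on the plus strand, 5′ to 3′, are given in lower case, taken from GRCm38.
Exon 14, chr15:89531626-89531708: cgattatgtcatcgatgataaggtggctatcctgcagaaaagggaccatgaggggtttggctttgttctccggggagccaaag
Exon 15, chr15:89532095-89532219: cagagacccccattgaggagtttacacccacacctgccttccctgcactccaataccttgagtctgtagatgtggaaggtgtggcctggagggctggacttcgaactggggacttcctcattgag
Exon 16, chr15:89532329-89532461: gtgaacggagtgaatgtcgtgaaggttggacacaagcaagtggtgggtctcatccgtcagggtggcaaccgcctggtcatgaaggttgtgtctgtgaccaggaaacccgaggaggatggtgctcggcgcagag
The exons are 83, 125 and 133 bases long. Together they hold 341 bases, which is 4.63% of the transcript and 6.30% of its coding part, and division of 341 by 3 leaves a remainder of 2. Of the 9 annotated Shank3 transcripts, 6 hold all of the deleted exons and 2 hold none of them. The table has 1 value per gene, so reads from the deleted exons and from the rest of the gene were not separated.

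**Figure D1:**
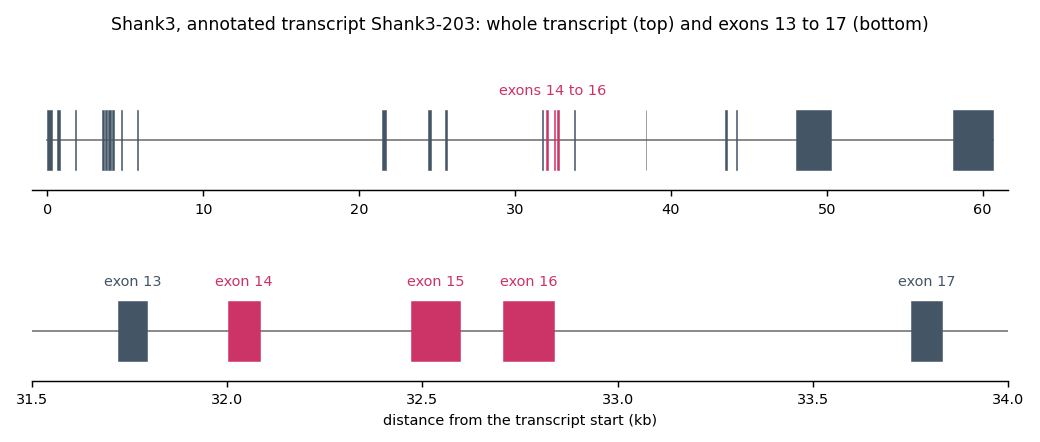
Exons of the annotated Shank3 transcript by distance from the transcript start in kb, for the whole transcript (top) and for exons 13 to 17 (bottom). Boxes are exons drawn to scale, and the deleted exons 14 to 16 (red) lie between 32.003 and 32.838 kb, upstream of the 2 longest exons, 21 and 22.

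The libraries were alike in their totals, which ranged from 30568259 to 32348554 normalized counts, with 19183 to 19223 genes above 0. No marker of the 12 lists of cell types, brain regions and activity passed the test between genotypes at either age. Between ages, 8 of 8 oligodendrocyte markers were lower at P60 in both genotypes, as were 4.99% of all genes in WT and 11.3% in KO mice, with summed levels of 400102 to 517899 at P25 and 194783 to 222470 at P60. Markers listed as cerebellar summed to between 287 and 541 in 10 libraries, to 829 in P60-KO replicate 1 and to 1824 in P60-WT replicate 2. In the 10 libraries most of each sum was Car8, at 204 to 466. Gabra6, a receptor subunit of cerebellar granule cells, was at 68.5 in P60-KO replicate 1, at 221 in P60-WT replicate 2 and between 0 and 4.40 in the others. Although the olfactory bulb had been removed, its markers summed to between 416 (P60-WT replicate 3) and 947 (P60-WT replicate 1).

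Levels of different genes were compared per kb of merged exon. In P25-WT mice, Dlgap3 had the highest level at 3488 ± 379 normalized counts per kb (SD, n = 3), followed by Shank1 at 2228 ± 144. Shank3 at 1173 ± 85.5 and Dlgap4 at 1095 ± 59.8 came next, and their libraries overlapped. Shank2 at 699 ± 67.9 and Dlgap1 at 679 ± 40.6 also overlapped. Homer1 stood at 405 ± 80.1, Dlgap2 at 305 ± 37.4, Homer2 at 171 ± 4.44 and Homer3 at 128 ± 21.2, and among these only Homer1 and Dlgap2 overlapped. Each family thus had 1 leading gene, Shank1, Dlgap3 or Homer1. The ranks at P60 in WT mice were the same, except that Dlgap1 stood above Shank2 with overlapping libraries and that Homer1 overlapped Shank2 and not Dlgap2. In KO mice Shank3 fell from the third to the sixth rank at both ages, below Dlgap1 and Shank2. With the longest transcript as the length, Dlgap4 and Dlgap1 ranked above Shank3 in WT mice too, so the order of these genes depends on the length used.

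By their mean over all libraries, the 10 genes ranged widely among the genes of the table. Shank1 was above 99.3% of all genes, Dlgap3 above 98.5% and Dlgap1 above 98.4%, whereas Homer3 was above 50.4%. All 10 genes passed the minimum mean of 10 normalized counts in every comparison.

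The level of Shank3 was examined first in the comparison of KO with WT mice. Shank3 was lower in KO mice at both ages and was the only member of the 3 families that passed the test. At P25, the WT mice had 10401, 11683 and 10254 normalized counts of Shank3, and the KO mice had 4891, 4901 and 5729. At P60, it was at 10310, 8936 and 10142 in the WT libraries and at 5186, 4535 and 5021 in the KO libraries. Every KO library lay below every WT library, with no value between 5729 and 8936. The KO mean was 48.0% of the WT mean at P25 and 50.2% at P60.

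The log2 fold change of Shank3 was -1.06 ± 0.09 (SE) at P25, with a limma adjusted p of 0.0134, and -0.99 ± 0.07 at P60, with an adjusted p of 0.00220. Over both ages it was -1.03 ± 0.06, with an adjusted p of 3.66e-07, and its 95% interval was from -1.15 to -0.91. Shank3 was also the only gene of the whole table past the threshold in limma, which is 0.00571% of the genes tested at P25, 0.00568% at P60 and 0.00568% over both ages. The study used DESeq2 with the same threshold of 0.05 and reported small sets of further genes. Among them were Yy2 and Fancm at P25, Gstp1 and Lamb3 at P60, and Ccdc40 at both ages. When 1 library was left out of the limma fit, other genes passed too. At P25 this gave 8 genes, 7 of them higher in KO mice, without P25-WT replicate 1 and 2 genes without P25-KO replicate 3. At P60 there were 3 genes without P60-KO replicate 1 and 2 without P60-WT replicate 1, and in each of these cases Shank3 was the only member called. The call of Shank3 at P25 was lost in some settings. The adjusted p was 0.246 without P25-KO replicate 1, 0.201 without P25-KO replicate 2, 0.412 without the intensity trend, 0.261 with the replicate number as a block, 0.111 after removal of length and GC trends and 0.99999 with both together. In all settings, its log2 fold change at P25 stayed between -1.001 and -1.14. At P60 the adjusted p rose to 0.185 without the intensity trend, and over both ages no setting ended the call.

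The difference of Shank3 between genotypes did not itself change detectably with age. The genotype by age interaction was 0.07 on the log2 scale, with a 95% interval from -0.19 to 0.32 and an unadjusted limma p of 0.586. No gene of the table passed the threshold for this interaction in limma (0%), and 288 of 17594 genes (1.64%) had an unadjusted p under 0.05. With 1 library left out, 1 gene that is not a member passed without P25-WT replicate 1, without P25-WT replicate 3 and without P60-WT replicate 1. None of the 10 members was among these 288 genes.

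**Figure D2:**
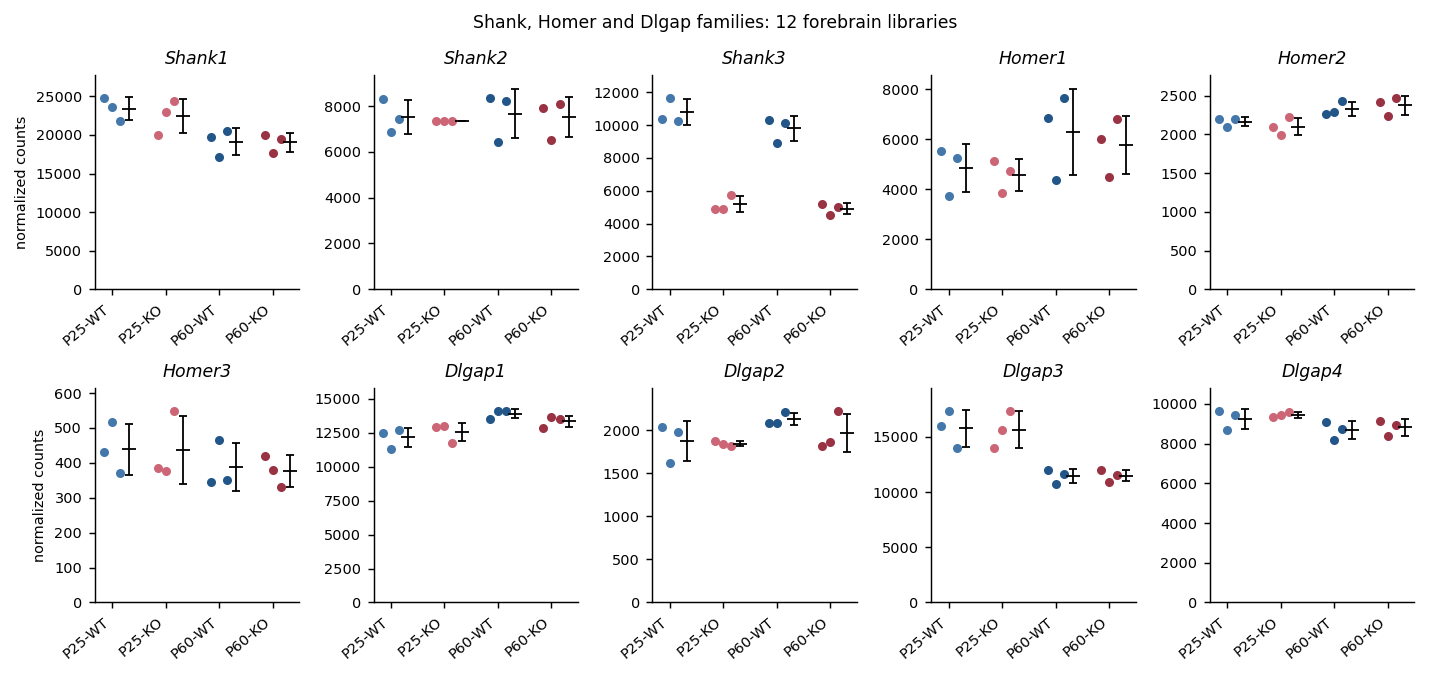
Normalized counts of the 10 genes in each library (colored points) with the mean and SD of each group (black, n = 3), by group on the x axis and from 0 on each y axis. Shank3 shows the split between WT and KO at both ages, while the KO and WT points of the other 9 genes overlap at each age.

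The paralogs Shank1 and Shank2 were examined next, to see whether their RNA was higher where Shank3 was reduced. It was not detectably higher in any comparison. Shank1 was at 24851, 23586 and 21838 normalized counts in the P25-WT libraries while those of P25-KO mice had 20036, 22973 and 24375. At P60 it was at 19754, 17178 and 20465 in the WT libraries and at 20024, 17635 and 19410 in the KO libraries. The KO and WT libraries were interleaved at both ages. Shank2 was at 8307, 6857 and 7418 in P25-WT mice and at 7335, 7360 and 7345 in P25-KO mice. At P60, Shank2 was at 8375, 6419 and 8234 in WT mice and at 7909, 6532 and 8114 in KO mice. All P25-KO and P60-KO values of Shank2 lay within the range of the WT libraries of their age.

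Over both ages, the log2 fold change of Shank1 was -0.03 ± 0.06 (SE) and its 95% interval ran from a change of -10.5% to one of 6.42%. That of Shank2 was -0.03 ± 0.07, with an interval from -11.8% to 9.07%. The unadjusted limma p was 0.559 for Shank1 and 0.699 for Shank2. Within single ages the intervals were wider, and their upper ends were increases of 9.72% (P25) and 11.4% (P60) for Shank1 and of 10.96% (P25) and 16.8% (P60) for Shank2. Increases smaller than these cannot be told apart from no change with 3 mice per group.

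The make-up of the Shank family was then described per kb. Shank3 made up 28.6 ± 2.05% of the summed Shank level in P25-WT mice (SD, n = 3) and 16.6 ± 0.84% in P25-KO mice. At P60 its share was 29.7 ± 0.72% in WT mice and 17.6 ± 0.20% in KO mice. The share of Shank1 was 54.3% in P25-WT mice and 63.1% in P25-KO mice, and 50.6% in P60-WT mice and 59.5% in P60-KO mice. Shank2 held 17.1% and 20.3% at P25 and 19.7% and 22.9% at P60, in WT and KO mice respectively. The shares of Shank1 and Shank2 were larger in KO mice, while their own levels were not detectably higher. The summed level of Shank1 and Shank2 was 2927 ± 189 per kb in P25-WT and 2819 ± 211 in P25-KO mice, and 2533 ± 264 in P60-WT and 2508 ± 195 in P60-KO mice, with overlapping libraries at both ages.

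The level of the whole Shank family per kb was lower in KO mice on average. It was 4100 ± 198 in P25-WT mice and 3382 ± 253 in P25-KO mice, and the libraries did not overlap. At P60 it was 3599 ± 344 in WT mice and 3042 ± 231 in KO mice, and the highest KO library (3203) was just above the lowest WT library (3202). These sums depend on the transcript length assumed for each gene.

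**Figure D3:**
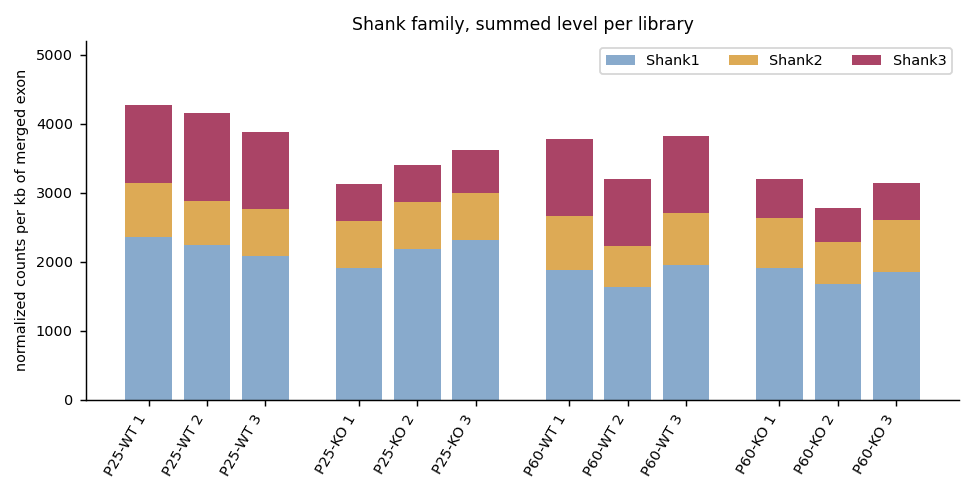
Summed level of Shank1, Shank2 and Shank3 in normalized counts per kb of merged exon, stacked for each of the 12 libraries. The Shank3 part (red) is between 973 and 1271 in WT libraries and between 493 and 623 in KO libraries, while the Shank1 and Shank2 parts overlap between genotypes.

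The Dlgap genes encode the direct binding partners of the PDZ domain that the deletion affects, and none of them differed detectably between genotypes. Dlgap1 was at 12462, 11323 and 12675 normalized counts in P25-WT mice and at 12937, 12959 and 11766 in P25-KO mice. At P60 it was at 13496, 14108 and 14086 in WT mice and at 12880, 13621 and 13488 in KO mice. The KO mean of Dlgap1 was thus above the WT mean at P25 and below it at P60, in each case with overlapping libraries. Over both ages, the log2 fold change was -0.01 ± 0.04 (SE) for Dlgap1, -0.07 ± 0.06 for Dlgap2, -0.00 ± 0.06 for Dlgap3 and 0.03 ± 0.04 for Dlgap4. The narrowest interval was that of Dlgap4, from a change of -3.97% to one of 8.21%, and the widest that of Dlgap2, from -13.4% to 4.94%. That of Dlgap3 ran from -8.69% to 8.91%.

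The Homer genes likewise did not differ detectably between genotypes. Homer2 was measured most precisely, with a log2 fold change over both ages of -0.01 ± 0.04 (SE) and an interval from -6.88% to 6.35%. Homer1 and Homer3 varied more between mice. The interval of Homer1 ran from -23.8% to 15.9%, and that of Homer3 from -17.3% to 16.6%. Changes of Homer1 or Homer3 within these intervals cannot be told apart from no change. The ends of the intervals are not limits of detection, and larger changes could also have missed the threshold over all genes.

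Over the 9 members other than Shank3, the median log2 fold change between genotypes was -0.02 at P25 and -0.03 at P60, beside medians of -0.01 and 0.00 over all genes tested. None of the 9 had KO libraries that were all above or all below the WT libraries, at P25 or at P60. Over all genes this held for 4.76% at P25 and for 7.79% at P60. The comparisons at the 2 ages used different mice, while the comparison over both ages reused them. In every setting tried, the lowest adjusted p of any of these 9 genes in a genotype comparison was 0.819.

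**Figure D4:**
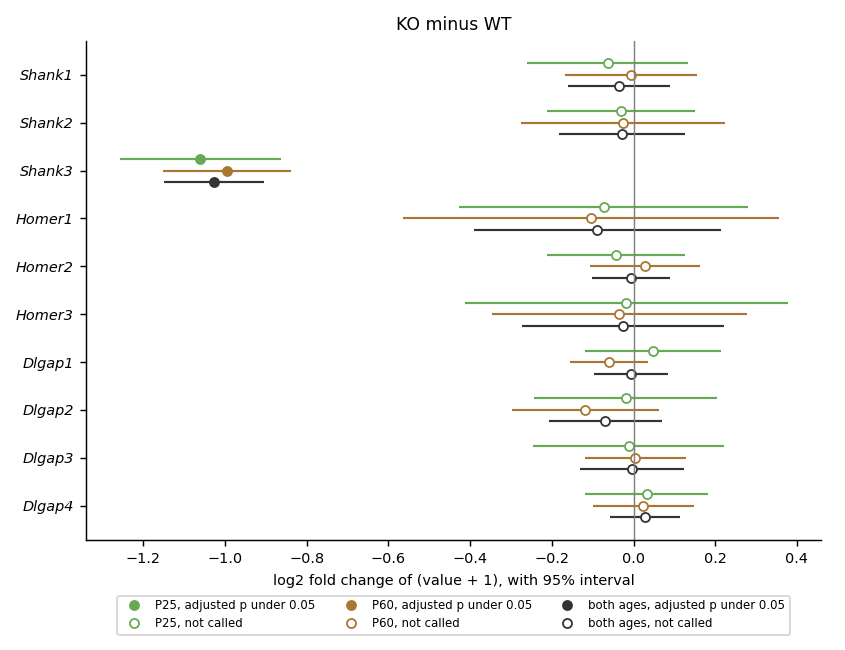
Log2 fold change of KO against WT for each of the 10 genes at P25, at P60 and over both ages, on the log2(value + 1) scale, with 95% intervals from limma (3 against 3 mice at each age, 6 against 6 over both). Filled points passed an adjusted p of 0.05, and only those of Shank3 did, at -1.06, -0.99 and -1.03.

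The proteins that bind these families were next read from a list of 27 partners, which included PSD-95 family members, group I metabotropic glutamate receptors, calcium channels and actin regulators. No partner passed the test between genotypes at P25, at P60 or over both ages, and none had an unadjusted limma p under 0.05 in these comparisons, which 1.36%, 2.5% and 2.05% of all genes had. The median log2 fold change of the partners was 0.01 at P25 and -0.01 at P60. Ionotropic glutamate receptor subunits with their tethering proteins, 12 genes in all, likewise gave no call and no unadjusted p under 0.05. Dlgap5, a Dlgap paralog of dividing cells that was not among the 10 genes, was listed at 0 to 20.6 normalized counts. It reached the minimum mean only at P25 between genotypes, where it was at -0.54 ± 0.40 on the log2 scale (SE) with a limma adjusted p of 0.99996, and between ages in KO mice, at -0.12 ± 0.56 with an adjusted p of 0.8996.

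Age was compared next, from P25 to P60 within each genotype. In WT mice 1 of 10 members passed the test, where 8.65% of all genes did, 3.66% higher and 4.99% lower. In KO mice 2 of 10 did, where 20.7% of all genes did, 9.37% higher and 11.3% lower. Over both genotypes 4 of 10 members passed, where 37.6% of all genes did, 18.3% higher and 19.3% lower. These shares of all genes depended on the variance model and on single libraries. Without the intensity trend, 1.09% of all genes passed in WT and 9.8% in KO mice. In WT mice the share was 1.36% without P25-WT replicate 1, 13.7% without P25-WT replicate 2, 13.1% without P25-WT replicate 3, and 1.31%, 2.14% and 0.693% without P60-WT replicate 1, 2 and 3. In KO mice it fell by over 1.5 times without P25-KO replicate 1 (13.4%) or 3 (11.9%) and without P60-KO replicate 1 (13.2%) or 3 (12.4%). With all 12 libraries in the fit it was 19.6% in WT and 14.2% in KO mice, so that the order of the genotypes was reversed. The number of members called in a genotype was small and moved as well, from 0 to 2 in WT and from 1 to 2 in KO mice when 1 library was left out. Over both genotypes the share of all genes was between 31.8% and 38.3% with 1 library left out, and 3 to 5 members passed. The split between directions depended on the scaling. Over both genotypes 3219 genes were higher and 3397 lower at P60, against 4035 and 2730 after libraries had been scaled to the same total, where Homer1 and Dlgap2 passed as well (adjusted p of 0.0419 and 0.0441). Within WT mice the split was 644 and 877, against 991 and 681, and within KO mice 1649 and 1992, against 2109 and 1621.

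Dlgap3, the most abundant member per kb, fell with age in both genotypes. In WT mice it was at 15978, 17370 and 13963 normalized counts at P25 and at 12014, 10759 and 11651 at P60. In KO mice it was at 13964, 15632 and 17316 at P25 and at 11979, 10947 and 11579 at P60. All P60 libraries lay below all P25 libraries in each genotype, which was the case for 18.4% of all genes in WT and 20.5% in KO mice. The P60 mean was 72.8% of the P25 mean in WT mice and 73.6% in KO mice. The log2 fold change was -0.45 ± 0.09 (SE) in WT mice, with a limma adjusted p of 0.0218, and -0.44 ± 0.07 in KO mice, with an adjusted p of 0.00380. Over both genotypes it was -0.45 ± 0.06, with an adjusted p of 7.31e-05. In WT mice the call was lost without any single P60 library and without P25-WT replicate 1, with adjusted p-values from 0.0723 to 0.102, and also without the intensity trend (0.0876) and after removal of length and GC trends (0.0583).

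Shank1 also fell with age. The values by library, given above, were all lower at P60 than at P25 within each genotype, as for 18.4% of all genes in WT and 20.5% in KO mice, though in KO mice the highest P60 library (20024) and the lowest P25 library (20036) differed by little. The P60 mean was 81.7% of the P25 mean in WT mice and 84.7% in KO mice. Over both genotypes the log2 fold change was -0.27 ± 0.06 (SE), with a limma adjusted p of 0.00278. In KO mice it was -0.24 ± 0.08 with an adjusted p of 0.0496, and in WT mice -0.29 ± 0.08 with an adjusted p of 0.0589. The call in KO mice was lost without P25-KO replicate 2 or 3 and without P60-KO replicate 1, 2 or 3, with adjusted p-values from 0.0602 to 0.157, and in 7 of the 12 other settings, with adjusted p-values from 0.0512 to 0.187. Without P25-WT replicate 2 or 3, Shank1 passed in WT mice, with adjusted p-values of 0.0449 and 0.0360.

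Shank2 and Shank3 did not change detectably with age. The log2 fold change over both genotypes was 0.02 ± 0.07 (SE) for Shank2, with a limma adjusted p of 0.814. For Shank3 it was -0.11 ± 0.06, with an adjusted p of 0.161. In KO mice the remaining Shank3 RNA at P60 was 94.98% of that at P25, and in WT mice 90.9%. Shank1 was thus the only Shank gene that passed the test of age.

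Homer2 and Dlgap1 rose with age when both genotypes were fitted together, but not after removal of length and GC trends, where Homer2 was at -0.03 (limma adjusted p of 0.681) and Dlgap1 at 0.04 (0.334). Homer2 was at 2193, 2099 and 2198 normalized counts in P25-WT mice and at 2262, 2285 and 2438 in P60-WT mice. It was at 2092, 1991 and 2220 in P25-KO mice and at 2418, 2235 and 2477 in P60-KO mice. In both genotypes the P60 libraries lay above the P25 libraries, as for 17.6% of all genes in WT and 18.9% in KO mice. The log2 fold change over both genotypes was 0.14 ± 0.04 (SE) for Homer2, with a limma adjusted p of 0.0225, and 0.14 ± 0.04 for Dlgap1, with an adjusted p of 0.0167. The libraries of Dlgap1 did not overlap between ages in WT mice and overlapped in KO mice. Neither gene passed within a single genotype, except Dlgap1 in WT mice with all 12 libraries in the fit (0.0350) and Homer2 in KO mice with libraries scaled to the same total (0.0394). In addition, the call of Homer2 was lost when replicate 2 of P25-KO, replicate 1 or 3 of P60-KO or replicate 3 of P60-WT was left out, with adjusted p-values from 0.0507 to 0.0583.

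Homer1 did not pass the test of age, although it had the largest positive log2 fold change of the 10 genes over both genotypes. After removal of length and GC trends it was at 0.08, below Dlgap2 at 0.23. This gene makes long Homer proteins, which cross-link partners, and a short activity-induced form (Homer1a) that cannot. Its 12 annotated transcripts were not separated in the table. In WT mice Homer1 was at 5522, 3750 and 5272 normalized counts at P25 and at 6840, 4358 and 7676 at P60. In KO mice it was at 5122, 3853 and 4747 at P25 and at 6022, 4493 and 6802 at P60. Replicate 2 was the lowest library in 4 of 4 groups, which was the case for 3.01% of the 17594 genes tested. Replicate 1 was the lowest in 4 of 4 groups for 1.05% of these genes and replicate 3 for 1.23%. The log2 fold change over both genotypes was 0.34 ± 0.14 (SE), with a limma adjusted p of 0.0717, so the gene did not pass. With the replicate number as a block the adjusted p was 0.000990, and when replicate 2 of P60-KO or of P60-WT was left out it was 0.0323 and 0.0139. In KO mice alone it did not pass (0.134), but did without P60-KO replicate 2 (0.0178). Over all settings it ranged from 0.000990 to 0.653. The replicate numbers were not taken to pair the libraries, since few pairs passed the check described under the processing.

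Since Homer1a is activity-induced, the summed level of 10 immediate early genes was set beside Homer1. It was 21230, 17674 and 40428 in P25-WT mice and 19107, 19183 and 33181 in P25-KO mice. At P60 it was 25730, 21247 and 31302 in WT mice and 29533, 25565 and 25417 in KO mice. The lowest library of this sum was replicate 2 in both WT groups but not in either KO group. Its part in the Homer1 values was not tested.

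Homer3, which is best known from cerebellar Purkinje cells, was the least abundant member. It was at 431, 516 and 371 normalized counts in P25-WT mice, at 385, 376 and 549 in P25-KO mice, at 346, 466 and 350 in P60-WT mice and at 421, 378 and 330 in P60-KO mice. The libraries with the highest cerebellar marker sums, P60-WT replicate 2 and P60-KO replicate 1, also had the highest Homer3 value of their group. Homer3 was higher still in P25-KO replicate 3 (549) and P25-WT replicate 2 (516). Their marker sums were only 439 and 541, though the highest of their groups. The part of cerebellar RNA in these values was not tested. Homer3 did not pass in any comparison, in any setting or with any 1 library left out, and 25.4% of its exonic bases overlap exons of Ddx49 on the opposite strand.

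Dlgap2 and Dlgap4 complete the families. Dlgap2 ranged from 1613 to 2036 normalized counts at P25 and from 1813 to 2224 at P60, and Dlgap4 ranged from 8685 to 9651 and from 8179 to 9161. The log2 fold change with age over both genotypes was 0.14 ± 0.06 (SE) for Dlgap2, with a limma adjusted p of 0.111, and -0.10 ± 0.04 for Dlgap4, with an adjusted p of 0.0717. Without P25-WT replicate 2, Dlgap4 passed at -0.12, with a limma adjusted p of 0.0168. The P60 libraries of Dlgap2 all lay above the P25 libraries in WT mice, as for 17.6% of all genes, and those of Dlgap4 all lay below in KO mice, as for 20.5%.

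**Figure D5:**
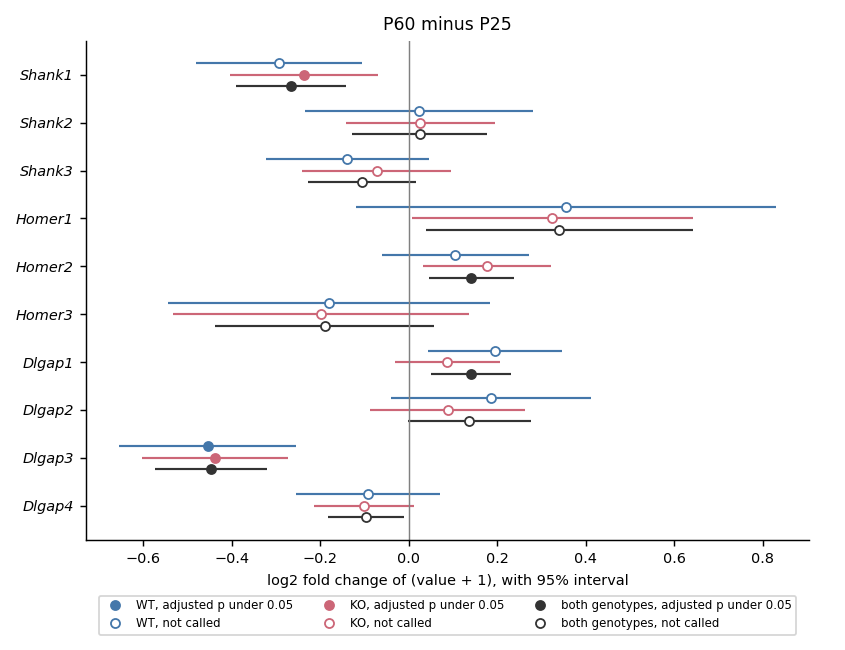
Log2 fold change of P60 against P25 for each of the 10 genes in WT mice, in KO mice and over both genotypes, on the log2(value + 1) scale with 95% intervals from limma. Filled points passed an adjusted p of 0.05. Dlgap3 is at -0.45, -0.44 and -0.45, and the widest intervals are those of Homer1 and Homer3.

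The GC content of the members was set beside their age differences. Over the longest annotated transcript, Dlgap3 had a GC content of 63.9% and Shank1 of 61.4%, while Dlgap1 had 50.9% and Homer2 44.4%. Of the members not called with age, Shank3 had 62.4%, Homer3 60.2%, Dlgap4 59.4%, Dlgap2 55.3%, Shank2 54.97% and Homer1 36.9%. Members at 59.4% or more all had negative log2 fold changes with age over both genotypes, called or not. Those at 55.3% or less all had positive ones. The part of GC content alone in these differences was not tested. After removal of the dependence on length and GC content from each library, the age change over both genotypes was -0.32 for Dlgap3 (limma adjusted p of 0.000800) and -0.18 for Shank1 (0.0387), which became 0.0619 when the replicate block was added. It was 0.04 for Dlgap1 (0.334) and -0.03 for Homer2 (0.681), so that the calls of these genes were lost and Homer2 turned direction. Dlgap2 passed in that setting, at 0.23 with an adjusted p of 0.00725. Homer1 was at 0.08 (0.653). The decrease of Dlgap3 was thus the only age difference of the members that passed over both genotypes in all settings tried.

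Marker levels are given here for comparison, over both genotypes, where 18.3% of all genes were higher and 19.3% lower at P60. Summed glutamatergic neuron markers were between 53772 and 56604 at P25 and between 45402 and 47288 at P60. Of these 9 genes, 5 were lower and 1 was higher at P60. Summed astrocyte markers were between 112210 and 126371 at P25 and between 94080 and 104471 at P60, with 5 of 8 lower. Striatal projection neuron markers, which come from a region where Dlgap3 and Shank3 are abundant, summed to between 31590 and 35362 at P25 and to between 31036 and 33796 at P60, with 1 of 9 higher and 1 of 9 lower. The part of cell composition in the age differences of the members was not tested.

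The partners of the families changed in both directions with age. Calls of partner, receptor and tether genes are those of the main fit and were not followed in the other settings. Of the 27 binding partners, 3 rose and 6 fell in WT mice, 4 rose and 8 fell in KO mice, and 9 rose and 8 fell over both genotypes. Over all genes, 3.66% rose and 4.99% fell in WT mice, 9.37% and 11.3% in KO mice, and 18.3% and 19.3% over both genotypes. Of the 12 receptor and tether genes, 1 rose and 1 fell in WT mice, 2 rose and 4 fell in KO mice, and 3 rose and 3 fell over both genotypes. The median over both genotypes was -0.02 for the partners and 0.03 for the receptors and tethers, beside 0.00 for all genes.

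Among the genes that rose were Homer partners of calcium signaling. Itpr1, the inositol trisphosphate receptor of the endoplasmic reticulum, rose from 12407 ± 1116 normalized counts in P25-WT mice (SD, n = 3) to 19109 ± 519 in P60-WT mice, a log2 fold change of 0.63 with a limma adjusted p of 0.00385. In KO mice it rose by 0.49, with an adjusted p of 0.00228. Ryr2, the ryanodine receptor, rose by 0.49 in WT mice (limma adjusted p of 0.0447) and by 0.31 in KO mice (0.00952). Cacna1d, an L-type calcium channel that binds Shank, rose by 0.29 in KO mice (0.00533) and was at 0.31 in WT mice (0.109). Lrrc7 (densin-180), a Shank-binding postsynaptic protein, rose by 0.43 over both genotypes (0.00102), and the AMPA receptor subunit Gria2 rose by 0.50 over both genotypes (1.02e-05).

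Among the genes that fell, Dlg4 encodes PSD-95, the membrane-side partner of Dlgap proteins. Dlg4 fell from 27892 ± 1220 normalized counts in P25-WT mice (SD, n = 3) to 21017 ± 698 in P60-WT mice, a log2 fold change of -0.41 with a limma adjusted p of 0.00999, and by 0.31 in KO mice with an adjusted p of 0.00227. Agap2 (PIKE), a Homer-binding GTPase, had a log2 fold change of -0.39 in WT mice (0.00800) and of -0.42 in KO mice (0.00166). Nlgn3, a postsynaptic adhesion protein that binds PSD-95, had -0.57 in WT mice (0.0107) and -0.55 in KO mice (0.000163). Over both genotypes Dlg4, Dlgap3 and Shank1 were thus all lower at P60, while Dlgap1 was higher.

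The genes most like Shank3 and like each member called with age were named by the root mean square difference of log2 values over the 12 libraries, each gene centred on its own mean. For Dlgap3 these were Gng12 (0.057), Palm (0.059) and Mgll (0.060), beside a root mean square deviation of 0.245 for Dlgap3 itself. For Shank1 they were Ppp1r9b (0.065), Tmem44 (0.065) and Ckap4 (0.067), beside 0.166. Dlgap1 was most like Sdha (0.025), Scaper (0.026) and Cadps (0.028), beside 0.093, and Homer2 most like Gart (0.042), Iqsec3 (0.043) and Stx5a (0.043), beside 0.090. For Shank3 the closest of 12906 genes were Il10ra (0.329), Lcp1 (0.387) and Efna1 (0.394), beside 0.525. These were genes of low level, with Il10ra at 104 to 193 normalized counts, Lcp1 at 215 to 335 and Efna1 at 82.3 to 146. The pattern of Shank3 was matched less closely, in proportion to its own deviation, than that of any of the other 4 genes. Since Shank3 was the only gene called between genotypes, no other gene could share its split, so this adds no separate result.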

How the data were processed

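The authors quantified transcripts with Salmon 1.1.0 with GC bias correction, imported them with tximport and normalized them with DESeq2, according to the methods of the study. The processing notes in the authors' labels name R 3.6.2, DESeq2 1.26.0 and GRCm38, while the methods of the study give other versions of R and DESeq2. Libraries were made with a TruSeq RNA kit, and strand setting and reference transcriptome are not given in the sources used here. The deposited values are signal on a count scale, normalized over all 12 libraries together. Of the values under 30 in a library, 8.40% to 12.0% lay within 0.05 of a whole multiple of its smallest value, where evenly spread values would give 10%. Whole reads were therefore not recovered, the depth is unknown, no count model or counting interval was used, and the 3 mice per group limit the precision.

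Annotation came from GENCODE M21 (GRCm38), in which 19252 of 19268 identifiers had a symbol. Members shared at most 0.498% of their 31-base words with another gene. Exons of other genes on the opposite strand overlapped those of Shank1 (3.22% of bases), Shank3 (2.95%), Homer2 (4.16%), Homer3 (25.4%), Dlgap1 (0.514%) and Dlgap4 (0.284%), and reads there cannot be assigned by strand.

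limma 3.58.1 (R 4.3.3) with an intensity trend was fitted to log2(value + 1) of all genes with a mean of at least 10, and Benjamini-Hochberg adjusted p-values under 0.05 were called. Simple comparisons used the 6 libraries concerned. Pooled comparisons and the interaction used all 12. Every fold change is a difference of log2(value + 1). The fit was also run on simulated data, the outcome of which is not given here. Same-numbered libraries were checked for pairing by the correlation of their deviations from the group means, which ranged from -0.072 to 0.166. It was above 0.1 in 2 of 3 pairs of P60-KO and P60-WT and in no other pair, so numbers were not taken to pair libraries.

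Named genes were all members, up to 3 partner or receptor genes per direction and age comparison with the smallest adjusted p, and the 3 genes most like Shank3 and each member called with age. Members, lists, tests and rules were chosen with earlier results of these data known. Other settings used another pseudocount, filter, scaling, variance model, set of libraries or gene length, added a replicate block, removed length and GC trends (splines with 5 degrees of freedom, on merged exon length and on the GC content of the longest transcript), or left out 1 library at a time.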

Additional observations from a re-analysis of the deposited data

How the results depend on the processing

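The Shank3 difference between genotypes kept its direction in every setting, and so did the age decreases of Dlgap3 and Shank1. The number of members called changed more often. For KO against WT at P25 it went from 1 to 0 without the intensity trend, with the replicate block, after removal of length and GC trends and with both of the latter, and it was 0 to 1 when 1 library was left out. At P60 it went from 1 to 0 without the intensity trend. With age in WT mice it went from 1 to 0 without the intensity trend and after removal of length and GC trends, with or without the replicate block, to 2 with the replicate block alone (Homer1 and Dlgap3) and to 3 with all 12 libraries in the fit (Shank1, Dlgap1 and Dlgap3), and it was 0 to 2 when 1 library was left out. With age in KO mice it went from 2 to 1 (Dlgap3) without a minimum mean, without the intensity trend, after removal of length and GC trends, with or without the replicate block, and with all 12 libraries, and it was 1 to 2 when 1 library was left out. Over both genotypes it went from 4 to 6 with libraries scaled to the same total (Homer1 and Dlgap2 added), to 5 with the replicate block (Homer1 added), to 3 after removal of length and GC trends (Shank1, Dlgap2 and Dlgap3) and to 2 (Dlgap2 and Dlgap3) with the block and that removal together, and it was 3 to 5 when 1 library was left out. The replicate numbers were not taken to pair the libraries, and with the block Homer1 passed in KO mice too (0.325, adjusted p 0.0275).

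The Shank3 share of the Shank family moved with the length used. With the longest transcript it was 31.3% in P25-WT, 18.5% in P25-KO, 32.2% in P60-WT and 19.4% in P60-KO mice, and without division by length 25.9%, 14.8%, 26.8% and 15.6%.

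Every sign change was of a difference that had not passed the test, except the age change of Homer2 over both genotypes. With libraries scaled to the same total the values that turned sign were 0.0014 for Dlgap3 (genotype difference at P25), 0.0012 for Dlgap3 (genotype difference over both ages), -0.012 for Shank2 and -0.00033 for Dlgap3 (genotype by age interaction). With length and GC trends removed, with the same values where the replicate block was added, the values that turned sign were -0.016 for Dlgap3 (genotype difference at P60), 0.0073 for Homer2 and 0.0096 for Dlgap1 (genotype difference over both ages), -0.073 for Homer2 (age change in WT), 0.027 for Shank3 and 0.012 for Dlgap4 (age change in KO), -0.027 for Homer2 and 0.0055 for Dlgap4 (age change over both genotypes), 0.025 for Homer1 and 0.016 for Dlgap4 (genotype by age interaction).

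With 1 library left out, the following differences crossed 0. The genotype difference at P25 ranged from -0.12 to 0.017 for Shank1, -0.19 to 0.10 for Homer3, -0.10 to 0.067 for Dlgap3, -0.25 to 0.045 for Homer1, -0.10 to 0.043 for Shank2, -0.13 to 0.043 for Dlgap2, -0.0030 to 0.093 for Dlgap1 and -0.013 to 0.063 for Dlgap4. The genotype difference at P60 ranged from -0.042 to 0.039 for Dlgap3, -0.018 to 0.061 for Dlgap4, -0.082 to 0.047 for Shank1, -0.15 to 0.072 for Shank2, -0.35 to 0.065 for Homer1, -0.0014 to 0.072 for Homer2 and -0.12 to 0.11 for Homer3. The genotype difference over both ages ranged from -0.072 to 0.0039 for Shank1, -0.11 to 0.037 for Homer3, -0.041 to 0.032 for Dlgap3, -0.025 to 0.014 for Homer2, -0.035 to 0.010 for Dlgap1 and -0.084 to 0.015 for Shank2. The age change in WT ranged from -0.046 to 0.15 for Shank2. The age change in KO ranged from -0.11 to 0.0029 for Shank3, -0.032 to 0.12 for Shank2 and -0.0042 to 0.14 for Dlgap2. The age change over both genotypes ranged from -0.0055 to 0.080 for Shank2. The genotype by age interaction ranged from -0.023 to 0.12 for Shank1, -0.28 to 0.14 for Homer1, -0.063 to 0.10 for Dlgap3, -0.14 to 0.16 for Homer3, -0.050 to 0.037 for Dlgap4, -0.12 to 0.10 for Shank2 and -0.19 to 0.0071 for Dlgap2. The precision was limited by 3 mice per group.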
